A study of Homo sapiens with 8 samples.

Results

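The response to miR-29a-3p was examined in the RNA libraries labelled H1299, a human non-small-cell lung cancer line. These are 4 of the 8 libraries of a study that also transfected cells labelled A549, a lung adenocarcinoma line. Members were chosen by label alone. The labels give 2 libraries as wild-type H1299 cells with a control microRNA (miR-ctrl). These were compared with 2 libraries labelled as wild-type H1299 cells overexpressing miR-29a-3p. The comparison ran across every gene of the H1299 block of the deposited table. No allele, drug or other treatment is named for any group, and neither the dose nor the time after transfection is given in the sources used here. That block holds 28609 genes. Of the 14635 genes that reached at least 1 FPKM (mapped fragments corrected for transcript length and library size) in at least 2 of the 8 libraries, 14555 are listed in that block. The stated purpose was to find genes that the microRNA may target in such cells.

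The labels did not match the lines' markers. CDKN2A, an inhibitor of cell cycle kinases whose gene is deleted in A549, was at 0.0513 and 0.112 FPKM in the controls and 0.081 and 0.06598 FPKM after miR-29a-3p in the H1299-labelled libraries. Its mean in the A549-labelled controls was 24.3 ± 0.72 FPKM (SD, n = 2). ALDH1A1, a retinaldehyde dehydrogenase that A549 makes in large amounts, was at 809 and 785 FPKM in the H1299-labelled controls while the A549-labelled controls had a mean of 59.2 ± 2.2 FPKM (SD, n = 2). These markers point the other way from the labels, so the libraries are called H1299-labelled throughout and no direction below is assigned to a line. The contrast of miR-29a-3p with control lies within the label and does not use the line's name. Markers of other cells were low. The leukocyte gene PTPRC was at 0 and 0 FPKM in the controls and 0.00675 and 0.00671 FPKM after miR-29a-3p, the fibroblast gene COL1A2 was at no more than 0.003896 FPKM, and the endothelial gene CDH5 at no more than 0.0117 FPKM. CD68, a lysosomal protein used as a macrophage marker, rose from 8.14 and 8.09 to 23.5 and 24.9 FPKM, a log2 change of 1.47 ± 0.067 (SE, adjusted p = 2.1e-05), and made up most of the sum of the 7 leukocyte markers found in the table, of 8 in the list. That sum was 9.47 and 9.58 FPKM in the controls and 26.1 and 27.4 FPKM after miR-29a-3p. The sum of the 9 fibroblast markers was 2.56 to 2.64 FPKM and 4.26 to 4.27 FPKM. Among these markers LUM was called higher, from 0.869 and 0.888 to 1.67 and 1.65 FPKM. The leukocyte marker ITGAM was also called higher, from 0.656 and 0.839 to 1.34 and 1.24 FPKM. For the 6 endothelial markers the sum was 0.209 to 0.305 FPKM in the controls and 0.297 to 0.343 FPKM after miR-29a-3p. As these are bulk libraries, fewer cells expressing a gene and less RNA per cell cannot be told apart.

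A microRNA guides the Argonaute complex to messenger RNAs that pair with its seed, the bases next to its 5′ end, and the bound messages are translated less and degraded faster. The miR-29 family is known for targets in the extracellular matrix, among them many collagens, and for targets in DNA methylation, apoptosis and the cell cycle. Its members share a seed and differ in the bases after it. The mature sequences are printed to show this (RefSeq, GRCh38.p14), with the seed, bases 2 to 8, in capitals. The mature miR-29a-3p lies at chr7:130876748-130876769 on the minus strand.
hsa-miR-29a-3p: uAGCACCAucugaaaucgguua
hsa-miR-29b-3p: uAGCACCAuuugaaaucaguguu
hsa-miR-29c-3p: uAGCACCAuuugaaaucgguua

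In a 3′ untranslated region (3′ UTR), the full match to this seed reads TGGTGCT (a 7mer-m8 site), and an A after it makes an 8mer site, TGGTGCTA. The sites below are those of genes on which the results turn, taken from the longest annotated 3′ UTR of each gene (GENCODE release 29, GRCh38). Each is printed with the bases before it, and capitals mark the site. All lie on the transcribed strand. The CLDN1 site is at chr3:190306632-190306639 and the COL5A2 site at chr2:189032873-189032880, both on the minus strand. The COL4A2 site is at chr13:110361425-110361432 and the SIRT1 site at chr10:67917228-67917235, both on the plus strand. COL4A2 runs on to position 110513209, far past its site, so not every message of that gene need hold it. Those of PMP22 at chr17:15230233-15230240 and HSPA5 at chr9:125235493-125235500 are on the minus strand. KRT80 at chr12:52169785-52169791, SLC7A5 at chr16:87830621-87830627 (both minus strand) and TRIB3 at chr20:397057-397063 (plus strand) have 7mer-m8 sites.
CLDN1: ctggagacctggatttgagtctTGGTGCTA
COL5A2: attattatttttcctttaatgaTGGTGCTA
COL4A2: tggctcccgtctctcttccctgTGGTGCTA
SIRT1: ctttacttttaaaagtaatactTGGTGCTA
PMP22: cagtgacaacaagtctttgaaaTGGTGCTA
HSPA5: gtatgatcaataaaggacaggcTGGTGCTA
KRT80: aagtcccaaaagagggtgctgatTGGTGCT
SLC7A5: tggggggtccagtctgtgatcctTGGTGCT
TRIB3: ccagtgtcggcctccactgatgcTGGTGCT

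The H1299-labelled libraries changed at many genes. Of 14635 genes tested with limma on log2(FPKM + 1), 7312 passed an adjusted p (Benjamini-Hochberg) of 0.05, which is 50.0% of those tested. By direction, 3677 were higher after miR-29a-3p (25.1%) and 3635 lower (24.8%). A change of at least 2-fold was found for 457 of the higher genes (3.12% of those tested) and 377 of the lower (2.58%), and at least 4-fold for 24 and 23. The median log2 change over all genes tested was 0.001 with an SD of 0.52, and the median size of a change was 0.28. The libraries of a group differed by a median of 0.08. In 11119 genes, 76.0% of those tested, the treated and control libraries did not overlap, more than the 50.0% called. Such separation was therefore common to most genes tested. In every gene said below to have risen or fallen, the treated libraries lay on the same side of both controls. Every count of genes called in the H1299-labelled libraries below is read against 25.1% and 24.8%. Depth, estimated from the values, was 12217997 to 15595525 fragments a library, and 12021 to 12370 genes reached 1 FPKM in each. Of the protein-coding genes, 3237 of 11788 were higher and 3127 were lower.

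**Figure D1:**
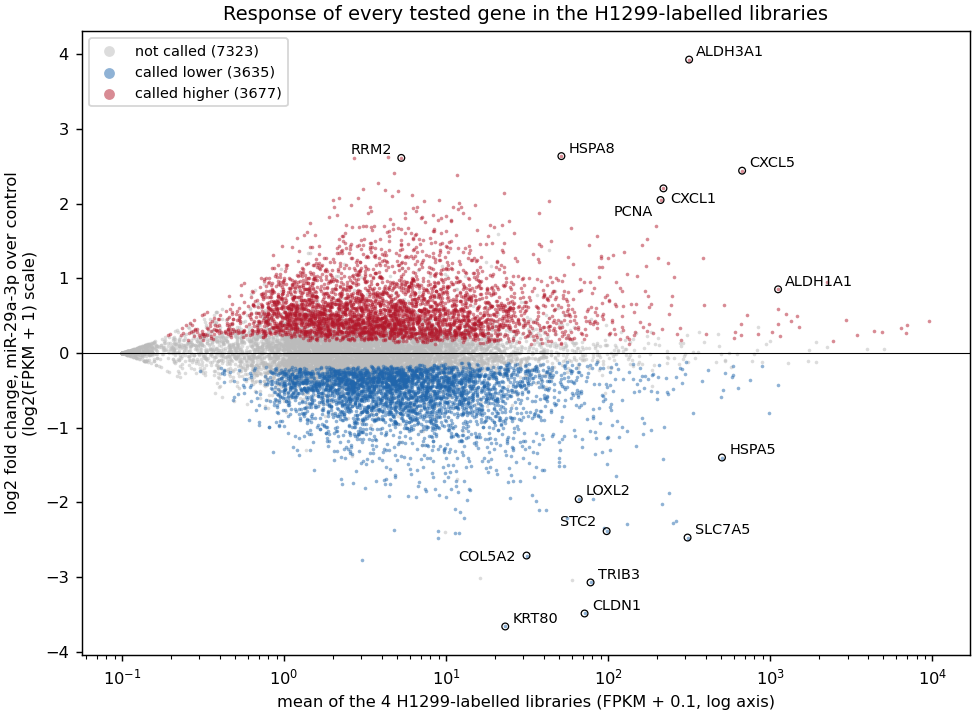
Log2 change after miR-29a-3p (vertical axis, log2(FPKM + 1) scale) against mean FPKM of the 4 libraries plus a small offset (horizontal log axis) for the 14635 genes tested in the H1299-labelled libraries. Points coloured as called comprise 3677 higher and 3635 lower genes, and the named points run from KRT80 at -3.66 to ALDH3A1 at 3.93.

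KRT80, a type II keratin found at desmosomes and intermediate filaments of epithelia, had the lowest log2 change of the protein-coding genes at or above 5 FPKM in either group. The gene (ENSG00000167767, chr12:52168996-52192000 on the minus strand of chromosome 12, GRCh38) was at 43.4 and 43.8 FPKM in the controls and 2.95 and 2.14 FPKM after miR-29a-3p. The treated libraries lay far below both controls, 17.1-fold lower by the means, with a log2 change of -3.66 ± 0.10 (SE, adjusted p = 9.8e-06). CLDN1, which encodes the tight junction protein claudin-1, followed (ENSG00000163347, chr3:190305701-190322475, minus strand). Its levels were 132 and 132 FPKM in the controls and 10.9 and 10.8 FPKM after miR-29a-3p, with a log2 change of -3.49 ± 0.049 (SE, adjusted p = 2.3e-06). The replicates of each group lay close together, and the group means were separated by a factor of 12.2. Both genes carry a seed match in the 3′ UTR, printed above. BEX2, a small adaptor protein gene, fell from 17.5 and 13.97 to 1.74 and 2.28 FPKM and UAP1L1, a paralog of the UDP-N-acetylglucosamine pyrophosphorylase gene UAP1, from 20.1 and 19.01 to 2.81 and 2.91 FPKM, changes of -2.47 ± 0.12 (SE, adjusted p = 3.0e-05) and -2.41 ± 0.066 (SE, adjusted p = 9.8e-06).

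The shares of genes called lower and higher are given by the best seed match in the 3′ UTR, as descriptions with no test. Of 401 tested genes whose best match was an 8mer, 37.9% were lower and 19.5% higher, with a median log2 change of -0.13. The 1507 genes with a 7mer-m8 match had 38.1% lower, 20.9% higher and a median of -0.11. For the weaker matches the shares lower were 31.1% of 350 genes (7mer-A1, which lacks the pairing to base 8) and 30.6% of 1716 genes (6mer). Of 7658 genes with none of these, 22.9% were lower, 2298 were higher and the median was 0.04. A fall of at least 2-fold was found for 6.23% of the 8mer genes, 4.78% of the 7mer-m8 genes and 1.85% of those without a match.

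Long 3′ UTRs hold more matches by length alone: the median length was 2922 bases for the 8mer class and 927 bases for genes without a match. The shares lower are therefore also given within bins of length. Among 3′ UTRs of 1 to 500 bases, 40.5% of 89 genes that held a full match and 21.9% of 2317 without a match were lower. Above 500 and up to 1500 bases the shares were 40.6% of 379 and 22.8% of 2793 genes, and above 3000 bases 36.8% of 906 and 24.0% of 859 genes. By number of matches the share lower was 37.6% of 1586 genes with 1 full match, 41.5% of 258 genes with 2 and 35.9% of 64 genes with 3 or more. Of the genes called lower, most had no full match: 726 of the 3112 lower genes with an annotated 3′ UTR had an 8mer or 7mer-m8.

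**Figure D2:**
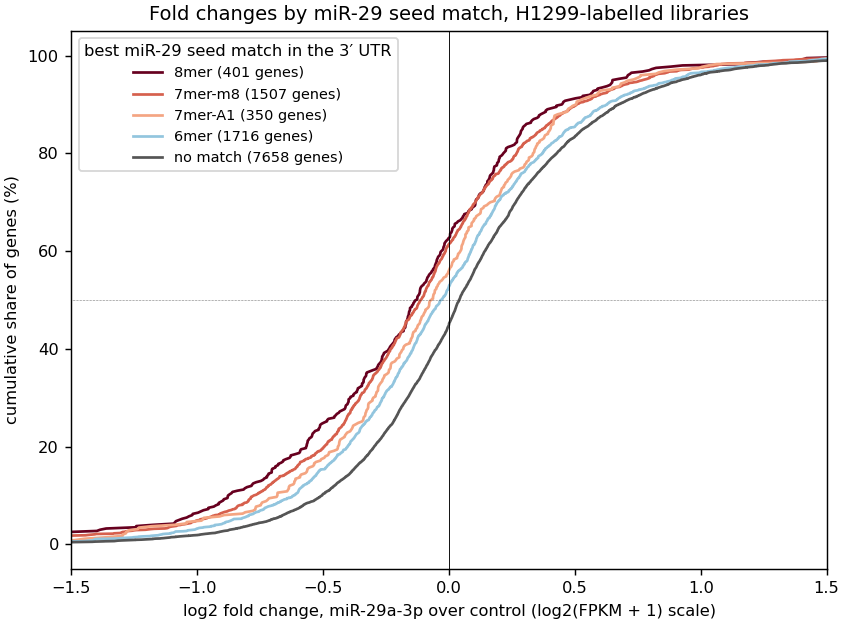
Cumulative share of genes (vertical axis, percent) by log2 change after miR-29a-3p (horizontal axis) in the H1299-labelled libraries, for the classes of best seed match in the 3′ UTR. The curves of the 8mer (401 genes, median -0.13) and 7mer-m8 classes (1507 genes, median -0.11) lie to the left of the curve for genes with no match (7658 genes, median 0.04).

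Among the 8mer genes at or above 5 FPKM in the controls, COL5A2 fell most after CLDN1. It encodes a chain of the fibrillar collagen V and was at 50.03 and 59.97 FPKM in the controls and 7.45 and 7.58 FPKM after miR-29a-3p, a log2 change of -2.71 ± 0.13 (SE, adjusted p = 2.2e-05). PMP22, a tetraspan membrane protein of myelin and epithelia, was at 13.1 and 14.2 FPKM in the controls and 3.002 and 3.27 FPKM after miR-29a-3p. Its change was -1.82 ± 0.14 (SE, adjusted p = 1.4e-04). SIRT1, a NAD-dependent deacetylase, fell from 15.8 and 16.4 to 4.78 and 4.61 FPKM (log2 change -1.59, SE 0.057, adjusted p = 1.2e-05). TFAP2C, a transcription factor of the AP-2 family, fell from 9.43 and 9.51 to 2.13 and 2.74 FPKM and RIT1, a small GTPase of the Ras superfamily, from 10.3 and 10.1 to 3.92 and 3.99 FPKM, with log2 changes of -1.61 (adjusted p = 4.7e-05) and -1.18 (adjusted p = 3.6e-05). The others of the 15 lowest 8mer genes were HINT3, PHLDB2, TIMM8B, THSD4, WDR18, NAV2 and AMMECR1L together with COL4A2 and HSPA5, described below, and in each the treated libraries lay below both controls. The sites of COL4A2, PHLDB2 and WDR18 lie well before the end of the gene. Whether the messages measured here hold these sites was not tested.

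The collagens, the best known miR-29 targets, were split. Of 19 tested members 8 were lower and 7 higher, with a median of -0.09 (0.01 with no filter on low values), and on the log2(FPKM + 1) scale only lower ones passed 2-fold (COL5A2, COL4A2, COL4A1 and COL12A1). COL4A1 and COL4A2 encode the paired chains of basement membrane collagen IV and lie head to head. COL4A1 was at 33.8 and 33.5 FPKM in the controls and 13.9 and 14.02 FPKM after miR-29a-3p and COL4A2 at 60.2 and 60.8 FPKM in the controls and 20.2 and 19.2 FPKM after miR-29a-3p, with changes of -1.21 ± 0.054 (SE, adjusted p = 2.1e-05) and -1.57 ± 0.064 (SE, adjusted p = 1.6e-05). COL12A1, a collagen associated with fibrils, fell from 4.85 and 4.93 to 1.87 and 1.97 FPKM (log2 change -1.01, SE 0.056, adjusted p = 4.2e-05). COL7A1, the collagen of anchoring fibrils, fell from 109.8 and 109.7 to 73.2 and 74.7 FPKM (log2 change -0.56, SE 0.058, adjusted p = 4.0e-04). A second collagen IV pair, COL4A3 and COL4A4, was lower too, COL4A3 from 1.35 and 1.01 to 0.446 and 0.367 FPKM (log2 change -0.63, SE 0.092, adjusted p = 0.0017) and COL4A4 from 1.79 and 1.55 to 0.592 and 0.5896 FPKM (log2 change -0.75, SE 0.077, adjusted p = 4.0e-04). Both are low in level, and under TPM scaling their changes were -1.18 and -1.26. COL13A1 and COL17A1, also low in level, went the other way, with changes of 1.38 and 1.01 under TPM scaling. On the log2(FPKM + 1) scale these were 0.73 and 0.51. The pair on the X chromosome moved the other way: COL4A5 rose from 14.6 and 13.98 to 18.3 and 18.3 FPKM and COL4A6 from 24.3 and 24.1 to 31.6 and 32.3 FPKM, by log2 changes of 0.34 (adjusted p = 0.0017) and 0.38 (adjusted p = 0.0027). COL27A1 rose from 2.02 and 1.75 to 3.97 and 3.73 FPKM (log2 change 0.75, SE 0.072, adjusted p = 2.9e-04). COL1A1, a main fibril collagen chain, was not called, at 1.33 and 1.19 FPKM in the controls and 1.48 and 1.502 FPKM after miR-29a-3p, and COL1A2 and COL3A1 were near 0 in all 4 libraries.

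Collagen-processing genes were also mixed, with 9 of 22 higher and 6 lower (median 0.09). LOXL2, a lysyl oxidase that cross-links collagen, was at 108 and 103 FPKM in the controls and 27.3 and 25.4 FPKM after miR-29a-3p. It was 3.99-fold lower by the means, with a change of -1.96 ± 0.053 (SE, adjusted p = 9.8e-06). Hsp47, the chaperone of procollagen encoded by SERPINH1, fell from 11.1 and 12.5 to 3.99 and 5.36 FPKM (log2 change -1.18, SE 0.15, adjusted p = 0.001), and PPIB, a prolyl isomerase of collagen folding, from 284 and 302 to 157 and 136 FPKM (adjusted p = 4.7e-04). PLOD1 and P4HA2, a lysyl and a prolyl hydroxylase of collagen, rose from 16.4 and 17.4 to 31.9 and 32.5 FPKM and from 5.64 and 5.33 to 9 and 9.37 FPKM, with changes of 0.89 ± 0.045 (SE, adjusted p = 3.0e-05) and 0.65 ± 0.056 (SE, adjusted p = 2.0e-04). The enzymes of collagen maturation did not move as a block.

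Of 30 other matrix and basement membrane genes, 10 were lower, none by 2-fold on the log2(FPKM + 1) scale, and 13 higher. FBN1, which encodes the microfibril protein fibrillin-1, fell from 3.14 and 3.14 to 1.195 and 1.26 FPKM (log2 change -0.89, SE 0.057, adjusted p = 6.8e-05). Of the laminin chains LAMC1 fell from 82.7 and 81.04 to 49.02 and 49.7 FPKM and LAMA5 from 109 and 112 to 65.4 and 66.4 FPKM, with changes of -0.72 (adjusted p = 8.6e-05) and -0.74 (adjusted p = 1.0e-04). TGFBI, a secreted adhesion protein induced by TGF-beta, rose from 168 and 166 to 355 and 327 FPKM (log2 change 1.02, SE 0.069, adjusted p = 8.4e-05), and ECM1 from 0.521 and 0.473 to 2.47 and 2.43 FPKM (log2 change 1.21, SE 0.092, adjusted p = 1.3e-04). The matrix genes outside the collagens thus held called members in both directions. The proteases and inhibitors had 14 of 28 higher and 6 lower, and 9 higher when these 4 libraries were fitted alone. MMP7, an epithelial metalloprotease, rose from 2.55 and 2.78 to 9.88 and 9.97 FPKM (log2 change 1.58, SE 0.069, adjusted p = 2.0e-05) and ADAMTS7 from 0.929 and 0.921 to 5.01 and 5.47 FPKM (log2 change 1.70, SE 0.074, adjusted p = 1.9e-05). ADAM17, the sheddase that releases membrane-bound growth factors, fell from 31.5 and 29.1 to 13.99 and 13.6 FPKM (log2 change -1.08, SE 0.066, adjusted p = 5.9e-05). Of the integrins ITGB3 rose from 5.78 and 5.39 to 21.1 and 22.99 FPKM (log2 change 1.81, SE 0.080, adjusted p = 2.0e-05) and ITGB1, the shared beta chain of collagen and laminin receptors, fell from 202 and 234 to 126 and 103 FPKM (log2 change -0.93, SE 0.14, adjusted p = 0.0019).

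Genes listed as reported miR-29 targets, most of them outside the matrix, were lower in 21 of 45 tested cases and higher in 9. Their median was -0.19. The lower ones include FSTL1, also counted among the other matrix genes above, and the matrix peroxidase gene PXDN. CDK6, a cyclin D kinase of G1 with 2 full matches in its 3′ UTR, was at 14.3 and 15.2 FPKM in the controls and 3.58 and 2.895 FPKM after miR-29a-3p, 4.56-fold lower (log2 change -1.90, SE 0.092, adjusted p = 2.7e-05). DOT1L, a histone H3 lysine methyltransferase, fell from 4.31 and 4.62 to 1.695 and 1.71 FPKM (log2 change -1.01, SE 0.056, adjusted p = 4.3e-05). TET3, which oxidises 5-methylcytosine and has 10 full matches, fell from 6.92 and 6.78 to 3.05 and 3.04 FPKM (log2 change -0.96, SE 0.051, adjusted p = 3.7e-05), less than genes with a single match such as CLDN1. TDG, the glycosylase that removes the oxidised bases, fell from 4.49 and 3.997 to 1.92 and 1.93 FPKM (log2 change -0.84, SE 0.069, adjusted p = 1.7e-04), and HBP1, a transcriptional repressor, from 8.28 and 9.63 to 4.05 and 4.41 FPKM (log2 change -0.93, SE 0.10, adjusted p = 4.8e-04). Each of these genes fell by about 2-fold or more. The de novo DNA methyltransferases, long reported as miR-29 targets, were not called lower: DNMT3A was not called, at 1.76 and 1.67 FPKM in the controls and 1.84 and 2.11 FPKM after miR-29a-3p, and DNMT3B rose from 0.793 and 0.833 to 3.56 and 4.07 FPKM (log2 change 1.41, SE 0.086, adjusted p = 5.9e-05). MCL1, a survival protein reported as a target, was not called, at 38.8 and 42.2 FPKM in the controls and 37.6 and 39.4 FPKM after miR-29a-3p. Of the microRNA pathway itself, XPO5, which exports microRNA precursors, fell from 7.68 and 7.697 to 3.33 and 3.36 FPKM (adjusted p = 4.8e-05), and AGO2, the slicing Argonaute, from 9.68 and 9.57 to 5.52 and 5.21 FPKM (log2 change -0.74, SE 0.060, adjusted p = 1.6e-04). Over the 17 genes of that pathway 4 were called lower and 4 higher (DROSHA, DGCR8, TNRC6A and LIN28B), with a median of -0.11, and the lower count ran from 2 to 7 over the other settings.

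**Figure D3:**
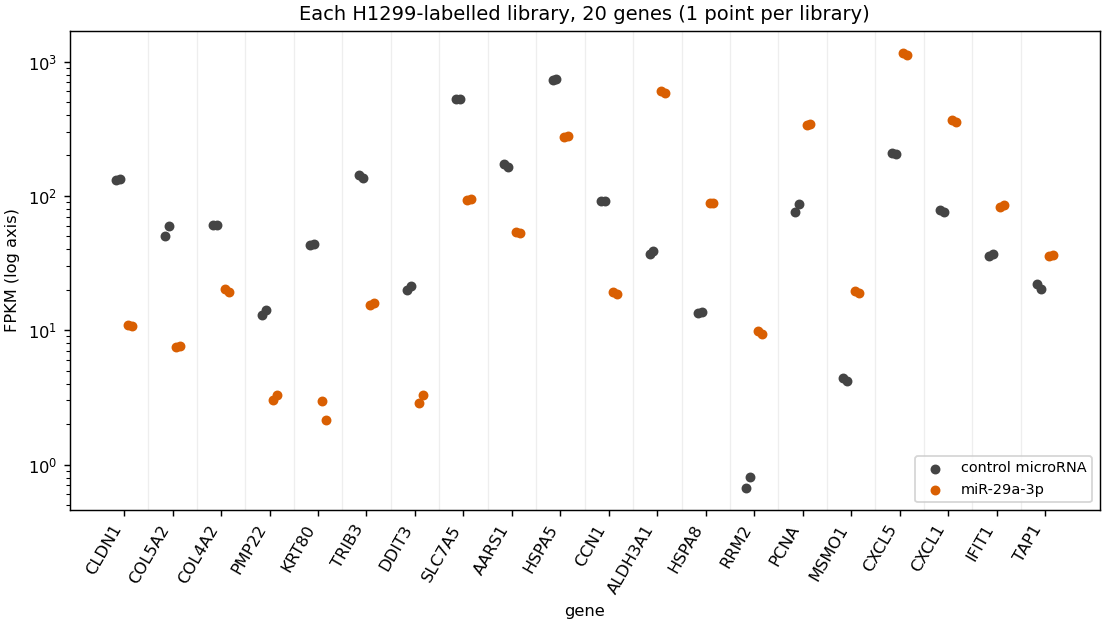
FPKM of chosen genes (vertical axis, log scale) in each of the 4 H1299-labelled libraries, with controls and miR-29a-3p libraries in different colours. In CLDN1 the controls were 132 and 132 FPKM and the treated libraries 10.9 and 10.8, and in ALDH3A1 37.1 and 38.9 and 599.9 and 588.

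Most genes of the ATF4-CHOP stress response fell. ATF4 and DDIT3 (CHOP) are transcription factors made when phosphorylation of eIF2alpha slows translation, after lack of amino acids or unfolded protein in the endoplasmic reticulum (ER), and they drive amino acid supply and feedback genes. Of 38 tested members 27 were lower, 17 of them by at least 2-fold, and 4 were higher. The median was -0.80 against 0.001 for all genes. TRIB3, a pseudokinase that restrains this response, was at 144 and 135 FPKM in the controls and 15.5 and 15.97 FPKM after miR-29a-3p, 8.88-fold lower (log2 change -3.07, SE 0.068, adjusted p = 6.1e-06). DDIT3 was at 20.04 and 21.2 FPKM in the controls and 2.88 and 3.298 FPKM after miR-29a-3p (log2 change -2.40, SE 0.083, adjusted p = 1.1e-05). The treated libraries of both genes lay below the controls by a factor of more than 5. PPP1R15A, the phosphatase subunit that removes the eIF2alpha phosphate, fell from 219 and 218 to 42.7 and 45.1 FPKM (log2 change -2.29, SE 0.042, adjusted p = 2.3e-06). STC2, a secreted glycoprotein, fell from 165 and 164 to 30.3 and 31.1 FPKM (log2 change -2.38, SE 0.042, adjusted p = 2.3e-06), and the factor ATF4 itself from 152 and 143 to 94.2 and 95.8 FPKM (log2 change -0.63, SE 0.060, adjusted p = 3.1e-04). Against the rest, SESN2, which restrains the growth kinase mTORC1 under stress, rose from 24.6 and 25.4 to 38.9 and 38.6 FPKM (log2 change 0.61, SE 0.053, adjusted p = 2.0e-04), and CHAC1, a glutathione-degrading enzyme, was not called, at 2.55 and 2.94 FPKM in the controls and 2.55 and 2.23 FPKM after miR-29a-3p. CEBPB fell to unequal levels, from 367 and 379 to 80.2 and 127 FPKM (log2 change -1.88, SE 0.19, adjusted p = 3.7e-04).

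Amino acid transporters and the enzymes that load transfer RNAs were mostly lower as well. The transporters share SLC3A2 with the ATF4-CHOP list, and the enzymes share NARS1 and WARS1. Of 22 transporters 14 were lower and 3 higher, with a median of -0.57. SLC7A5 and SLC3A2 encode the light and heavy chain of the leucine exchanger LAT1. SLC7A5 was at 526 and 523 FPKM in the controls and 92.7 and 94.8 FPKM after miR-29a-3p and SLC3A2 at 62.1 and 60.5 FPKM in the controls and 13.3 and 13.8 FPKM after miR-29a-3p, and both were more than 4-fold lower, with changes of -2.47 ± 0.051 (SE, adjusted p = 4.6e-06) and -2.10 ± 0.061 (SE, adjusted p = 9.8e-06). SLC7A1, a cationic amino acid carrier, fell from 33.1 and 32.96 to 12.6 and 12.7 FPKM (log2 change -1.32, SE 0.041, adjusted p = 9.8e-06), and SLC38A1, a glutamine carrier, from 57.6 and 59.9 to 19.4 and 18.98 FPKM (log2 change -1.56, SE 0.053, adjusted p = 1.1e-05). Of 19 genes in the list of cytosolic aminoacyl-tRNA synthetases 13 were lower and 1 was higher (median -0.66). The 19 include the scaffold proteins AIMP1 and AIMP2, both among the lower, and EEF1E1, which was not called. The symbols GARS, MARS, QARS and SARS, 4 of the list's 23, could not be matched to a single gene and are not counted. Their genes may still be among those tested. AARS1, for alanine, fell from 172 and 164 to 53.9 and 52.8 FPKM (log2 change -1.64, SE 0.053, adjusted p = 9.8e-06) and IARS1, for isoleucine, from 71.8 and 76.4 to 25.6 and 25.2 FPKM (log2 change -1.51, SE 0.044, adjusted p = 9.8e-06). In the synthesis of serine, asparagine, proline and one-carbon units 9 of 23 were lower and 9 higher. ASNS, asparagine synthetase, fell from 13.9 and 14.5 to 5.08 and 5.06 FPKM (log2 change -1.32, SE 0.058, adjusted p = 2.0e-05) and PHGDH, the entry enzyme to serine, from 16.5 and 18.1 to 9.28 and 9.33 FPKM (log2 change -0.83, SE 0.082, adjusted p = 3.4e-04), whereas SHMT1, a cytosolic one-carbon enzyme, rose from 2.36 and 2.14 to 3.74 and 3.66 FPKM (log2 change 0.53, SE 0.072, adjusted p = 0.0012).

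ER chaperones and folding factors were lower in 28 of 38 cases and higher in 2, with a median of -0.52. HSPA5 (BiP), the main Hsp70 of the ER, carries an 8mer site and was at 726 and 737 FPKM in the controls and 276 and 277 FPKM after miR-29a-3p. It was 2.64-fold lower (log2 change -1.40, SE 0.034, adjusted p = 8.2e-06). HYOU1, its exchange factor, fell from 39.7 and 39.8 to 9.59 and 9.61 FPKM (log2 change -1.94, SE 0.084, adjusted p = 1.9e-05). HSP90B1, the Hsp90 of the ER, fell from 248 and 245 to 119.8 and 120.4 FPKM (log2 change -1.03, SE 0.041, adjusted p = 1.6e-05), and the lectin chaperones CANX and CALR fell from 128 and 125 to 89.5 and 87.2 FPKM and from 233 and 237 to 170.0 and 156 FPKM (log2 change -0.51, SE 0.041, adjusted p = 1.5e-04, and log2 change -0.53, SE 0.071, adjusted p = 0.0012). ERN1, the ER stress sensor IRE1, fell from 27.4 and 28.1 to 8.66 and 8.4 FPKM (log2 change -1.59, SE 0.058, adjusted p = 1.2e-05). ERO1A, an oxidase of disulphide formation, was an exception and rose from 11.2 and 11.7 to 20.97 and 20.2 FPKM (log2 change 0.79, SE 0.053, adjusted p = 8.0e-05).

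Promoter letters of these lists were searched in the window from 250 bases before to 50 after the start (RefSeq, GRCh38.p14), on both strands. The ATF4 element TGATGNAA was in 6 of 34 promoters of the ATF4-CHOP list (17.6%) and in 3.67% of 27305 promoters and 1.61% of the 9870 that belong to tested genes. The ER stress element (CCAAT, any 9 bases, CCACG) was in 7 of 34 promoters of the ER list (20.6%), in 0.081% of all and in 0.142% of those of tested genes. Of the genes with the ATF4 element, SLC3A2, ASNS, PPP1R15B and NARS1 were lower, and CHAC1 and ATF3 were not called (log2 changes -0.14 and -0.27). Of those with the ER stress element, ERO1B was not called and the others were lower. The windows of ASNS, which starts its match at position -68, and HSPA5, at -66, are printed because these genes fell with their lists. Capitals mark the match, and each window runs in the direction of the gene, both on the minus strand (chr7:97872397-97872516 and chr9:125241330-125241449). A match is a description of the letters and says nothing about binding.
ASNS: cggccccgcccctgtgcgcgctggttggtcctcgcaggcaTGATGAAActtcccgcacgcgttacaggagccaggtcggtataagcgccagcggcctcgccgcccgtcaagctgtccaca
HSPA5: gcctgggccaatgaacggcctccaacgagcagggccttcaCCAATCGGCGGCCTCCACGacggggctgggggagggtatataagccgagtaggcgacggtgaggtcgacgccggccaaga

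The list for YAP and TEAD, the transcription factors that respond to cell density and stretch, holds their targets and some genes of the factors. Of its 25 tested genes 14 were lower, 10 of them by at least 2-fold, and 8 were higher. The median of the list was -0.61. The factor genes YAP1 and TEAD4 are among the higher, and TEAD1 and WWTR1 were not called. CCN1, a secreted matricellular protein, was at 92.05 and 91.01 FPKM in the controls and 19.4 and 18.6 FPKM after miR-29a-3p (log2 change -2.21, SE 0.038, adjusted p = 2.3e-06). ANKRD1, a muscle ankyrin repeat protein often used as a YAP readout, fell from 16.1 and 14.9 to 2.21 and 2.11 FPKM (log2 change -2.39, SE 0.20, adjusted p = 1.7e-04). AXL, a receptor tyrosine kinase, fell from 143 and 146 to 50.7 and 51.2 FPKM (log2 change -1.48, SE 0.038, adjusted p = 9.4e-06) and CRIM1 from 117 and 116 to 52.7 and 52.2 FPKM (log2 change -1.13, SE 0.035, adjusted p = 9.8e-06). NT5E (CD73), which makes adenosine at the cell surface, went against them and rose from 15.8 and 16.6 to 70.7 and 68.4 FPKM (log2 change 2.03, SE 0.049, adjusted p = 8.2e-06). YAP1 itself rose from 14.2 and 14.1 to 16.8 and 16.98 FPKM (log2 change 0.24, SE 0.040, adjusted p = 0.0033).

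Of 18 tight junction genes, CLDN1 included, 9 were lower and 6 higher, or 3 higher without the second miR-29a-3p library. OCLN (occludin) fell from 4.16 and 3.99 to 1.51 and 1.42 FPKM (log2 change -1.04, SE 0.087, adjusted p = 1.8e-04) and TJP1 (ZO-1), the scaffold beneath the junction, from 21.2 and 21.6 to 13.2 and 13.3 FPKM (log2 change -0.65, SE 0.054, adjusted p = 1.8e-04). Of 9 keratins 4 were lower and 2 higher. KRT7 fell from 426 and 419 to 221 and 264 FPKM (log2 change -0.80, SE 0.085, adjusted p = 4.5e-04), while the simple-epithelium keratins KRT8 and KRT19 rose from 34.8 and 30.3 to 75.3 and 85.99 FPKM and from 4.34 and 4.43 to 19.9 and 20.1 FPKM (log2 change 1.28, SE 0.098, adjusted p = 1.3e-04, and log2 change 1.96, SE 0.065, adjusted p = 9.9e-06). Among the small TIM chaperones, which escort proteins between the mitochondrial membranes, 4 of 6 were lower. TIMM13 fell from 24.9 and 24.7 to 8.002 and 9.03 FPKM (log2 change -1.44, SE 0.071, adjusted p = 2.9e-05), and TIMM8B, an 8mer gene, from 7.79 and 10.7 to 2.41 and 2.495 FPKM (log2 change -1.56, SE 0.22, adjusted p = 0.0014). The remaining genes described here are signalling and sugar genes. DUSP1, an inducible phosphatase of MAP kinases, fell from 422 and 413 to 83.5 and 87.7 FPKM (log2 change -2.27, SE 0.071, adjusted p = 9.8e-06). It was 1 of 21 immediate early genes, of which 9 were lower and 7 higher. Within the list FOSL1 fell from 14.6 and 15.3 to 8.49 and 8.602 FPKM (log2 change -0.74, SE 0.060, adjusted p = 1.6e-04) and EGR1 rose from 1.29 and 1.49 to 4.66 and 4.96 FPKM (log2 change 1.28, SE 0.085, adjusted p = 7.8e-05). The glucose transporter gene SLC2A3 fell from 18.8 and 19.1 to 3.68 and 3.74 FPKM (log2 change -2.08, SE 0.055, adjusted p = 9.4e-06) and HK2, a hexokinase, from 3.02 and 2.94 to 1.27 and 1.16 FPKM (log2 change -0.85, SE 0.058, adjusted p = 8.5e-05).

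Genes of DNA replication and nucleotide synthesis were higher in 50 of 53 tested cases, 24 of them by at least 2-fold, and lower in none. The median was 0.92. These genes are transcribed at the entry to S phase under E2F factors. RRM2, the inducible subunit of ribonucleotide reductase, was at 0.671 and 0.806 FPKM in the controls and 9.94 and 9.35 FPKM after miR-29a-3p, 13.1-fold higher (log2 change 2.61, SE 0.065, adjusted p = 8.2e-06). PCNA, the sliding clamp of the replicative polymerases, was at 76.2 and 86.5 FPKM in the controls and 334 and 345 FPKM after miR-29a-3p (log2 change 2.05, SE 0.073, adjusted p = 1.2e-05). The treated libraries lay above both controls by about 4-fold. TK1 and TYMS, which make thymidine nucleotides, rose from 4.802 and 3.52 to 19.96 and 19.2 FPKM and from 7.63 and 8.79 to 26.7 and 31.6 FPKM (log2 change 2.01, SE 0.12, adjusted p = 5.7e-05, and log2 change 1.71, SE 0.11, adjusted p = 6.7e-05). Subunits of the replicative helicase rose unequally: MCM4 from 1.94 and 1.92 to 10.8 and 9.796 FPKM (log2 change 1.95, SE 0.080, adjusted p = 1.7e-05), MCM6 from 2.55 and 2.35 to 8.54 and 7.66 FPKM (log2 change 1.40, SE 0.061, adjusted p = 1.9e-05) and MCM7 from 11.2 and 11.1 to 14.8 and 17.3 FPKM (log2 change 0.48, SE 0.072, adjusted p = 0.0019). The helicase genes differed in size of rise but not in direction. The loading factor CDT1 rose from 1.65 and 1.87 to 9.77 and 8.53 FPKM (log2 change 1.88, SE 0.076, adjusted p = 1.6e-05) and the transcription factor E2F1 from 2.33 and 1.96 to 10.2 and 11.3 FPKM (log2 change 1.90, SE 0.079, adjusted p = 1.7e-05).

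Genes of mitosis were mixed. Of 44 tested, 16 were higher, 8 lower and 20 not called, with a median of 0.15, and 5 were lower without the first miR-29a-3p library. MYBL2, which is transcribed before mitosis, rose from 4.498 and 5.42 to 9.06 and 9.19 FPKM (log2 change 0.77, SE 0.075, adjusted p = 3.2e-04), and CCNA2 (cyclin A2) from 3.01 and 2.75 to 4.14 and 4.32 FPKM (log2 change 0.43, SE 0.055, adjusted p = 9.5e-04). CCNB2 (cyclin B2) fell from 4.82 and 5.47 to 3.29 and 3.38 FPKM (log2 change -0.50, SE 0.063, adjusted p = 9.3e-04) and CDC25B, a phosphatase that activates the mitotic kinase, from 78.2 and 67.02 to 28.3 and 25.1 FPKM (log2 change -1.41, SE 0.089, adjusted p = 6.5e-05). The controls of E2F1 and MCM6 were under 3 FPKM, and on the log2(FPKM + 1) scale the folds of genes this low are understated. The E2F element TTTNGCGC was in 15 of 44 promoters of the replication list (34.1%) and in 1.83% of all promoters and 3.18% of those of tested genes. The E2F1 window (chr20:33686336-33686455, minus strand) shows the match at position -20 in capitals.
E2F1: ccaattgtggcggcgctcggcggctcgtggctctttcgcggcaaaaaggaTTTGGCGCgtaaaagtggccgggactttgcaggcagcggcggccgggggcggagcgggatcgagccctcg

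Heat shock proteins, most of them cytosolic, moved against the ER chaperones. Of 31 tested in that list, 21 were higher and 4 lower, with a median of 0.54, and the 4 include the ER protein HSPA13. HSPA8, the constitutive cytosolic Hsp70, was at 13.4 and 13.6 FPKM in the controls and 89.2 and 89.2 FPKM after miR-29a-3p, 6.61-fold higher (log2 change 2.64, SE 0.077, adjusted p = 9.8e-06). It has many processed pseudogenes, so the share of its fragments counted at the gene is uncertain. HSP90AA1, the inducible Hsp90, rose from 41.1 and 44.2 to 122 and 134 FPKM (log2 change 1.56, SE 0.059, adjusted p = 1.4e-05). The small heat shock protein gene HSPB1 rose from 70.6 and 68.4 to 175 and 184 FPKM (log2 change 1.35, SE 0.044, adjusted p = 9.8e-06) and the co-chaperone DNAJA1 from 51.2 and 53.5 to 126 and 129.6 FPKM (log2 change 1.27, SE 0.043, adjusted p = 1.0e-05). Constitutive and inducible members are thus both among those that rose. HSPA13, an Hsp70 relative, fell from 27.3 and 28.6 to 11.6 and 12.5 FPKM (log2 change -1.15, SE 0.054, adjusted p = 2.3e-05).

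Lipid synthesis genes were mostly higher. Of 29 cholesterol genes 19 were higher and 4 lower (median 0.63), and of 19 fatty acid genes 14 were higher and 1 lower (median 0.38). MSMO1, a sterol demethylase, was at 4.43 and 4.199 FPKM in the controls and 19.8 and 18.8 FPKM after miR-29a-3p (log2 change 1.93, SE 0.086, adjusted p = 2.0e-05), and IDI1, the isopentenyl diphosphate isomerase, at 5.18 and 5.37 FPKM in the controls and 14.9 and 15.02 FPKM after miR-29a-3p (log2 change 1.35, SE 0.058, adjusted p = 1.9e-05). HMGCS1, the synthase before the rate-limiting reductase, was not called, at 5.76 and 5.89 FPKM in the controls and 6.85 and 5.51 FPKM after miR-29a-3p. SCD, the stearoyl-CoA desaturase, rose from 142 and 140.4 to 332 and 325 FPKM (log2 change 1.21, SE 0.032, adjusted p = 9.4e-06), FASN, the fatty acid synthase, from 13.7 and 13.8 to 31.5 and 31.7 FPKM (log2 change 1.15, SE 0.047, adjusted p = 1.6e-05) and FADS2, a desaturase of polyunsaturated fatty acids, from 4.95 and 4.63 to 22.5 and 18.3 FPKM (log2 change 1.88, SE 0.11, adjusted p = 4.6e-05). Sterol, saturated and polyunsaturated lipid steps are all among the genes that rose. The master factors of the pathway split: SREBF2 rose from 8.34 and 7.73 to 13.9 and 13.9 FPKM (log2 change 0.72, SE 0.055, adjusted p = 1.3e-04) and SREBF1 fell from 12.2 and 12.1 to 8.67 and 9.14 FPKM (log2 change -0.41, SE 0.063, adjusted p = 0.0022). The sterol element searched (TCAC, any base, CCAC) was in 1 of 23 promoters of the cholesterol list (4.35%), in 1.15% of all promoters and in 0.973% of those of tested genes.

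Chemokines and inflammatory mediators were higher in 25 of 33 cases, 14 of them by at least 2-fold, and lower in 5, with a median of 0.87. CXCL5 and CXCL1 attract neutrophils. CXCL5 was at 209.7 and 206 FPKM in the controls and 1157 and 1112 FPKM after miR-29a-3p (log2 change 2.44, SE 0.077, adjusted p = 9.8e-06) and CXCL1 at 78.5 and 76.5 FPKM in the controls and 369 and 354 FPKM after miR-29a-3p (log2 change 2.21, SE 0.075, adjusted p = 1.1e-05), both more than 4-fold higher. Other mediators started from far lower levels. CCL2, which attracts monocytes, rose from 2.33 and 2.12 to 12.7 and 11.8 FPKM (log2 change 2.04, SE 0.071, adjusted p = 1.1e-05). CSF3, the granulocyte growth factor, rose from 0.897 and 0.7097 to 8.56 and 8.595 FPKM (log2 change 2.41, SE 0.077, adjusted p = 9.8e-06) and TNFSF14 (LIGHT), a cytokine of the TNF family, from 0.235 and 0.742 to 8.46 and 7.63 FPKM (log2 change 2.62, SE 0.16, adjusted p = 5.8e-05). The cytokines IL11 and LIF, of the IL-6 family, fell from 81.9 and 77.6 to 28.1 and 26.4 FPKM and from 98.3 and 95.3 to 52.6 and 51.3 FPKM (log2 change -1.52, SE 0.063, adjusted p = 1.7e-05, and log2 change -0.88, SE 0.043, adjusted p = 2.7e-05). CXCL genes lie in clusters of close paralogs, so how their fragments were split is uncertain.

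The NF-kB subunits and feedback genes, which often change with such mediators, were evenly split, 9 of 28 higher and 9 lower. NFKB2, the precursor of p52, fell from 49.05 and 48.1 to 31.6 and 31.7 FPKM (log2 change -0.60, SE 0.039, adjusted p = 7.2e-05), MAP3K14, the kinase that starts its processing, from 11.1 and 11.1 to 5.41 and 5.16 FPKM (log2 change -0.95, SE 0.055, adjusted p = 5.1e-05), and ICAM1, an adhesion molecule, rose from 5.56 and 6.33 to 12.6 and 12.8 FPKM (log2 change 0.98, SE 0.067, adjusted p = 8.6e-05). An NF-kB element (GGG, any 2 bases, TTTCC) was in 9 of 31 promoters of the mediator list, in 1.92% of all promoters and in 2.24% of those of tested genes. The windows of CXCL1 (chr4:73869274-73869393, plus strand, match at -79) and CXCL5 (chr4:73998689-73998808, minus strand, match at -91) hold the same 10 letters, in capitals.
CXCL1: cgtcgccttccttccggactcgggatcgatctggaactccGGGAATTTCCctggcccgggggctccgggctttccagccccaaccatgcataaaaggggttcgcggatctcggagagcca
CXCL5: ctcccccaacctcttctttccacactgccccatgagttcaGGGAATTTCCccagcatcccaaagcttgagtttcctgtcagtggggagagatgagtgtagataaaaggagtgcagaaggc

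Interferon-stimulated genes were higher in 41 of 52 cases and lower in 2, with a median of 0.60. IFIT1, which binds RNA lacking the host cap, was at 35.7 and 37.1 FPKM in the controls and 82.9 and 85.9 FPKM after miR-29a-3p (log2 change 1.19, SE 0.047, adjusted p = 1.6e-05), IFIT3 at 118 and 126 FPKM in the controls and 219 and 217 FPKM after miR-29a-3p (log2 change 0.83, SE 0.045, adjusted p = 4.0e-05) and ISG15, a ubiquitin-like modifier, at 148 and 136 FPKM in the controls and 219.8 and 227 FPKM after miR-29a-3p (log2 change 0.65, SE 0.058, adjusted p = 2.2e-04). In each the treated libraries lay above both controls, by less than 3-fold. GBP1, a guanylate-binding protein, rose from 2.898 and 3.18 to 9.33 and 8.63 FPKM (log2 change 1.31, SE 0.074, adjusted p = 4.7e-05) and the RNA sensor OAS3 from 28.9 and 27.98 to 59.1 and 57.7 FPKM (log2 change 1.01, SE 0.052, adjusted p = 3.3e-05). IFITM1, a membrane protein that blocks viral entry, fell from 26.7 and 25.7 to 12.1 and 14.7 FPKM (log2 change -0.93, SE 0.16, adjusted p = 0.0032). Antigen presentation genes were higher in 16 of 20 cases and lower in none (median 0.62). The proteasome subunit PSMB9 rose from 4.25 and 3.82 to 9.07 and 8.88 FPKM (log2 change 0.99, SE 0.078, adjusted p = 1.5e-04), the peptide transporter TAP1 from 22.03 and 20.4 to 35.7 and 36.1 FPKM (log2 change 0.73, SE 0.059, adjusted p = 1.6e-04), and HLA-E from 38.2 and 37.6 to 59.3 and 60.5 FPKM (log2 change 0.65, SE 0.037, adjusted p = 4.8e-05). PDCD1LG2 (PD-L2) rose from 1.002 and 1.04 to 3.13 and 3.36 FPKM (log2 change 1.07, SE 0.063, adjusted p = 5.2e-05). The interferon element (GAAA, any 2 bases, GAAA) was in 25 of 41 promoters of the interferon list (61.0%), in 3.65% of all promoters and in 2.83% of those of tested genes, and the IFIT1 window (chr10:89392467-89392586, plus strand) holds it at 2 places, read on the other strand and marked in capitals.
IFIT1: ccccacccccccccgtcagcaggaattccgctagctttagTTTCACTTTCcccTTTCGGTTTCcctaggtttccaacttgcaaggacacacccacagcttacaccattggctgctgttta

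Aldehyde dehydrogenases and aldo-keto reductases, which detoxify carbonyls, were higher in 13 of 22 cases. The 3 called lower became 1 without either control library or without the first miR-29a-3p library. ALDH3A1 (ENSG00000108602, chr17:19737984-19748943, minus strand) had, on the log2(FPKM + 1) scale, the largest rise of any protein-coding gene at or above 5 FPKM in either group. It was at 37.1 and 38.9 FPKM in the controls and 599.9 and 588 FPKM after miR-29a-3p, 15.6-fold higher by the means, a change of 3.93 ± 0.062 (SE, adjusted p = 2.3e-06). AKR1B10 rose from 86.04 and 85.8 to 237 and 233 FPKM (log2 change 1.44, SE 0.055, adjusted p = 1.5e-05) and ALDH1A1, already among the more abundant messages, from 809 and 785 to 1471 and 1412 FPKM (log2 change 0.85, SE 0.047, adjusted p = 4.2e-05). The antioxidant targets of NRF2 were less uniform, 15 of 37 higher and 10 lower. TKT, a transketolase of the pentose phosphate pathway, fell from 55.9 and 54.2 to 24.5 and 24.1 FPKM (log2 change -1.15, SE 0.051, adjusted p = 2.0e-05).

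In the TGF-beta family 13 of 31 genes were higher and 4 lower (median 0.27). The ligand TGFB1 rose from 47.1 and 47.1 to 85.5 and 84.3 FPKM (log2 change 0.84, SE 0.043, adjusted p = 3.2e-05) and its receptor TGFBR2 from 37.6 and 38.8 to 68.4 and 69.8 FPKM (log2 change 0.84, SE 0.042, adjusted p = 3.1e-05). ID1, an inhibitor of basic helix-loop-helix factors, rose from 56.6 and 59.4 to 138 and 146 FPKM (log2 change 1.28, SE 0.046, adjusted p = 1.2e-05) and BAMBI, a decoy receptor, from 6.93 and 7.01 to 19.7 and 21.5 FPKM (log2 change 1.44, SE 0.077, adjusted p = 3.9e-05). TGFB1, TGFBR2, ID1 and BAMBI thus rose, while 14 of the 31 genes were not called. Among those 14 were TGFB2, TGFB3, TGFBR1, SMAD3, SMAD4, SMAD7 and PMEPA1. SMAD2, a signal transducer of the pathway, fell from 3.32 and 3.27 to 2.096 and 2.04 FPKM (log2 change -0.48, SE 0.061, adjusted p = 9.6e-04). Of 34 genes of glycolysis and of glucose and lactate transport 21 were higher and 7 lower. CA9, a carbonic anhydrase induced by low oxygen, rose from 0.549 and 0.793 to 3.99 and 3.04 FPKM (log2 change 1.43, SE 0.12, adjusted p = 2.1e-04), and PGK1 rose from 97.8 and 95.3 to 149 and 151 FPKM (log2 change 0.63, SE 0.037, adjusted p = 5.5e-05). Of the 13 mitochondrially encoded mRNAs 12 were higher, with a median of 0.35. MT-CO2 rose from 6199 and 5975 to 7964 and 7812 FPKM (log2 change 0.37, SE 0.049, adjusted p = 0.0011) and MT-ND5 from 873 and 898 to 1376 and 1302 FPKM (log2 change 0.60, SE 0.042, adjusted p = 9.9e-05). Of 16 commonly used reference genes 6 were higher and 2 lower (median 0.08). GAPDH rose from 578 and 603 to 841 and 838 FPKM (log2 change 0.51, SE 0.037, adjusted p = 1.1e-04).

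Smaller lists held members in both directions. Of 16 genes of the BCL2 family, which controls mitochondrial apoptosis, 7 were higher and 3 lower. BAK1, a pore-forming member, fell from 8.81 and 7.799 to 4.85 and 3.85 FPKM (log2 change -0.80, SE 0.10, adjusted p = 0.001), and BOK, a relative of it, rose from 7.02 and 6.16 to 10.4 and 11.5 FPKM (log2 change 0.66, SE 0.085, adjusted p = 0.0011). Of 18 hexosamine and UDP-sugar genes 4 were higher and 4 lower, and GFPT1, the entry enzyme of hexosamine synthesis, fell from 22.3 and 23.5 to 14.2 and 13.7 FPKM (log2 change -0.67, SE 0.054, adjusted p = 1.5e-04). Of 15 tubulins 7 were higher and 1 lower. TUBB4B, a beta-tubulin, rose from 52.3 and 52.7 to 99.1 and 105 FPKM (log2 change 0.95, SE 0.047, adjusted p = 2.9e-05), and its close paralogs make the split of fragments uncertain. Of 16 mesenchymal genes 6 were higher and 3 lower, or 1 lower without the second control or the first miR-29a-3p library. ACTA2, smooth muscle actin, rose from 6.89 and 6.92 to 23.3 and 24.2 FPKM (log2 change 1.65, SE 0.065, adjusted p = 1.6e-05). Of 9 epithelial genes 3 were higher and 4 lower: ELF3, an epithelial transcription factor, rose from 5.93 and 5.37 to 11.2 and 12.6 FPKM (log2 change 0.95, SE 0.092, adjusted p = 3.1e-04) and the desmosomal plakophilin gene PKP3 fell from 8.08 and 7.39 to 3.79 and 3.82 FPKM (log2 change -0.86, SE 0.097, adjusted p = 5.8e-04).

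**Figure D4:**
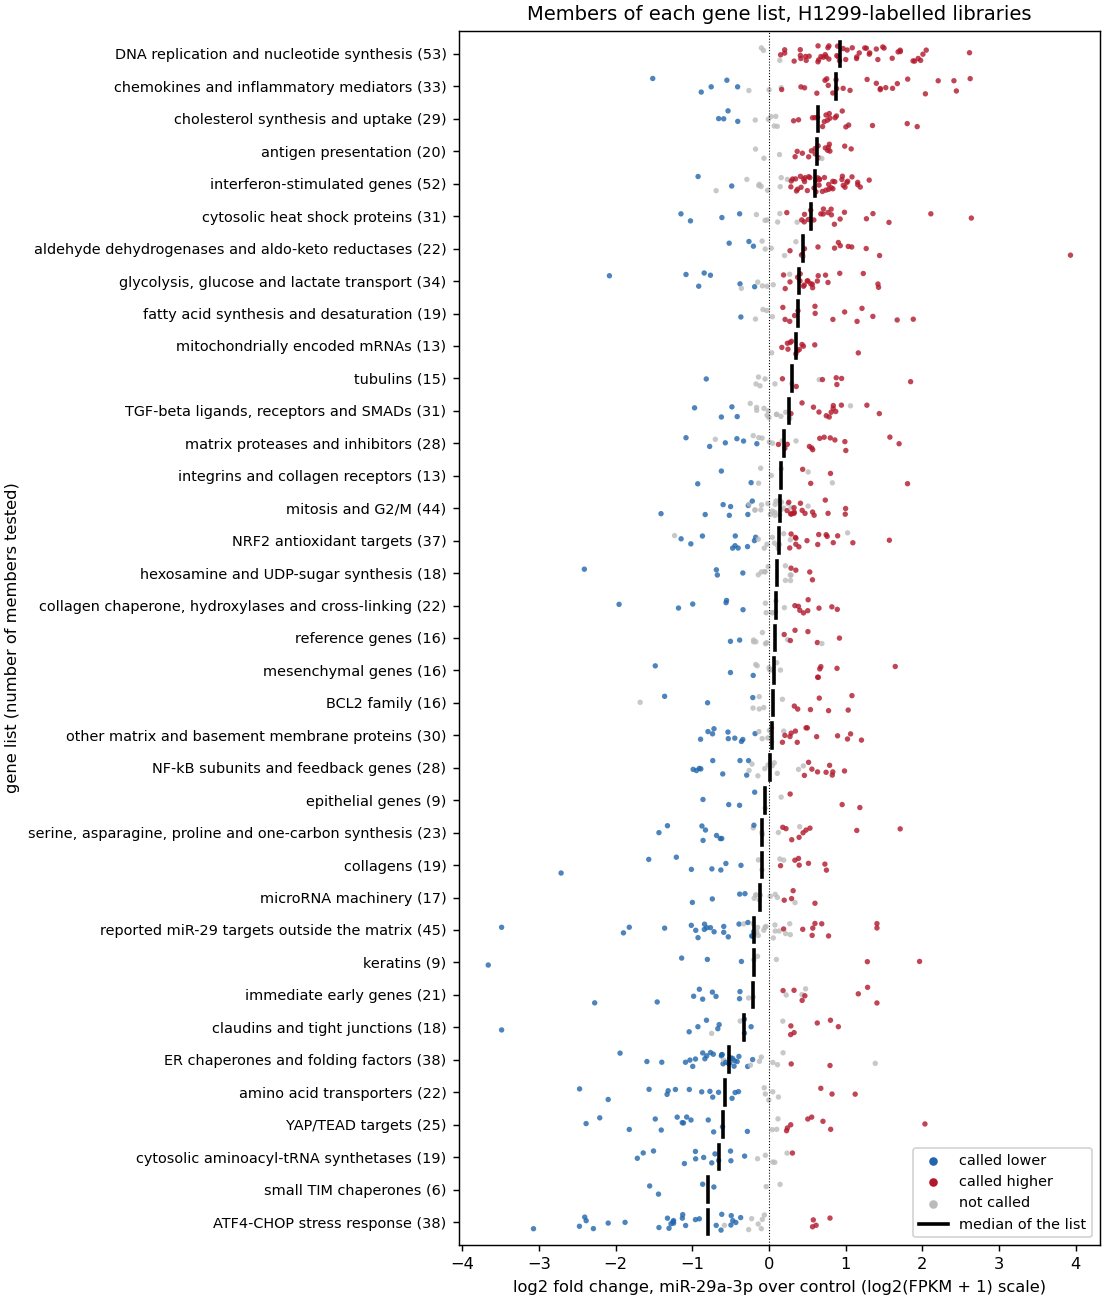
Log2 change after miR-29a-3p (horizontal axis) of each tested member of the gene lists (rows) in the H1299-labelled libraries, with each list's median marked. The medians run from -0.80 for the ATF4-CHOP stress response to 0.92 for DNA replication, around 0.001 for all genes tested.

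The response was compared with that of the A549-labelled libraries, which share no library with it. The difference of the responses, tested in the same fit, was called for 5464 genes, 37.3% of those tested, and 4723 of these were also called in the H1299-labelled libraries. The A549-labelled libraries had 2336 of the 14635 genes called, higher and lower together, and the median size of a change was 0.14 there against 0.28 here. Counts given below for those libraries are read against that combined share, which is an upper bound for either direction alone. Of the 11632 tested genes with an annotated 3′ UTR, 9.97% were called lower there. Counts of called differences are read against 37.3%. Of the genes called under both labels, 1026 moved the same way and 551 opposite ways. In 8mer genes 28.9% were lower in the A549-labelled libraries and 37.9% here, and in genes without a match 6.2% and 22.9%.

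The ATF4-CHOP list changed in opposite directions under the labels. Of its 38 members 23 were higher and 1 lower in the A549-labelled libraries, against 4 and 27 here, and 30 had a called difference with the lower response here, and 2 the reverse. TRIB3, at a log2 change of -3.07 here, was at 0.80 in the A549-labelled libraries (adjusted p = 0.0013), a difference of -3.87 ± 0.097 (SE, adjusted p = 1.4e-05). DDIT3 was at -2.40 here and 1.04 there, a difference of -3.44 ± 0.12 (SE, adjusted p = 4.1e-05). The control means differed too, at 139.8 FPKM here and 8.68 there for TRIB3 and 20.6 and 3.78 for DDIT3. After miR-29a-3p the means were 15.7 and 15.9 FPKM for TRIB3 and 3.09 and 8.80 for DDIT3. Whether the responses depend on the starting levels was not tested. The median of the list was -0.80 here and 0.40 there. For the tRNA synthetases 13 of 19 differences were called, all lower here, and for the ER chaperones 27 of 38, 26 of them lower here.

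Replication genes also separated the labels, with a called difference in 51 of 53 members, each higher here. PCNA rose by 2.05 here and was at -0.31 in the A549-labelled libraries (adjusted p = 0.037), a difference of 2.36 ± 0.10 (SE, adjusted p = 6.2e-05). Control means of PCNA were 81.4 FPKM here and 93.6 there, and those of RRM2 were 0.739 and 16.7 FPKM. After miR-29a-3p the means of RRM2 were 9.64 FPKM here and 11.8 there. Whether the differences depend on such starting levels was not tested. The median change of the list in the A549-labelled libraries was -0.13. Of the 31 genes in the heat shock list 20 had a called difference higher here and 3 lower. In HSPB1 the difference was 1.28 ± 0.062 (SE, adjusted p = 8.7e-05). ALDH3A1 was at 0.31 in the A549-labelled libraries (adjusted p = 0.022), and the difference was 3.62 ± 0.088 (SE, adjusted p = 1.4e-05).

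Most interferon genes rose under both labels, 41 of 52 here and 35 there, and the differences went both ways, 16 higher and 17 lower here. IFIT3 rose by 0.83 here and 1.58 there, a difference of -0.75 ± 0.064 (SE, adjusted p = 4.4e-04). CLDN1 and KRT80 fell under both labels. The change of CLDN1 was -3.49 here and -1.26 there (adjusted p = 1.4e-04), a difference of -2.23 ± 0.069 (SE, adjusted p = 3.4e-05), from control levels of 132 and 132 FPKM here and a mean of 11.3 ± 0.46 FPKM (SD, n = 2) there. KRT80 was at -3.66 and -1.16 (adjusted p = 0.0016), a difference of -2.51 ± 0.15 (SE, adjusted p = 1.3e-04). LOXL2 was at -1.96 here and -1.79 there, a difference of -0.16 ± 0.075 (SE, adjusted p = 0.14), and COL4A1 at -1.21 and -0.28, a difference of -0.92 ± 0.077 (SE, adjusted p = 4.0e-04).

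**Figure D5:**
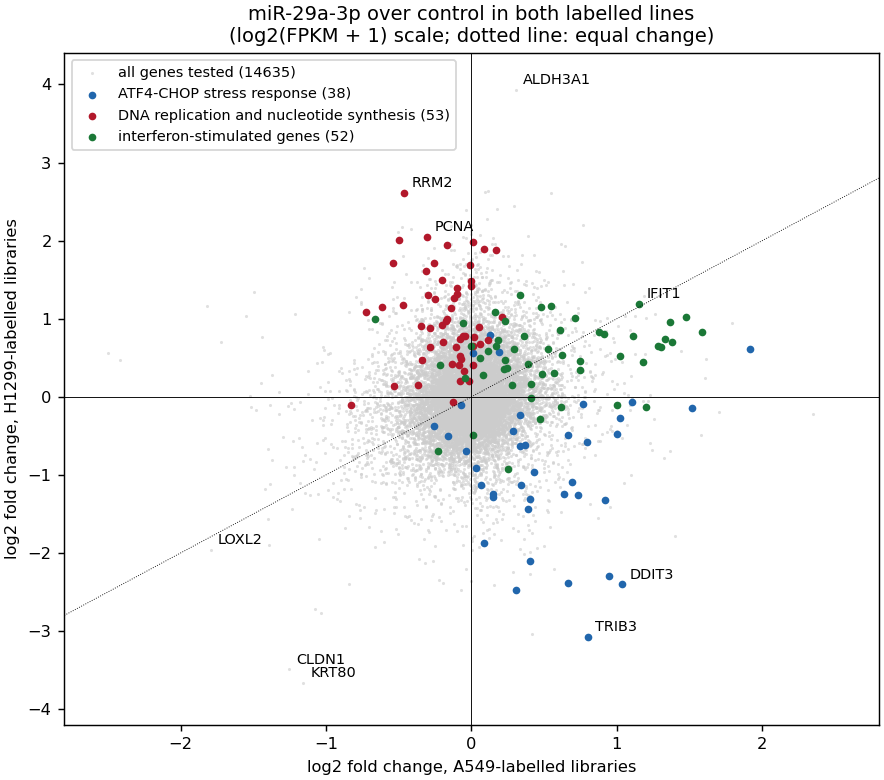
Log2 change after miR-29a-3p in the H1299-labelled libraries (vertical axis) against that in the A549-labelled libraries (horizontal axis) for the genes tested, with members of chosen lists coloured. Most replication genes lie above 0 on the vertical axis (median 0.92) and around -0.13 on the horizontal, and ATF4-CHOP genes lie mostly below 0 on the vertical (median -0.80) and above 0 on the horizontal (median 0.40).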

How the data were processed

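RNA of 4 libraries labelled H1299 and 4 labelled A549 was compared, 2 for each line and transfection. The authors deposited 1 table of FPKM values per gene and library. The submitters' processing notes name StringTie and GRCh38. Versions, aligner, annotation and strand setting were not given in the sources used here, so a gene and its antisense partner may share fragments. Replicate numbers come from the labels, which do not tie them to separate cultures, and p-values then reflect a spread between libraries that may be technical. Same-numbered libraries did not deviate together (correlations of -0.011 and 0.018), and no block was used.

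FPKM were used without further scaling, and a gene absent from the block of a line was taken as 0. Genes that reached 1 FPKM in 2 or more of the 8 libraries (14635 of 31461) were tested with limma 3.58.1 in R 4.3.3 on log2(FPKM + 1), which understates changes of low genes. The fit had a mean per group and a variance trend (4 residual degrees of freedom, prior 2.36). Every adjusted p is limma's, by Benjamini-Hochberg over all genes tested, called under 0.05. The fit was tested on simulated data. The plan allowed for counts or FPKM, and FPKM was found. Depth was estimated from the step between FPKM values under 0.2.

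Positions, gene types and 3′ UTRs came from GENCODE 29 (31105 of 31461 identifiers found), and microRNA and promoter sequences from RefSeq (GRCh38.p14). Older symbols in the lists were matched through RefSeq synonyms. Members and lists were chosen with earlier results of these data known. Named genes were the 20 lowest and 20 highest protein-coding genes at 5 FPKM or more in a group, the 15 lowest 8mer genes, the 4 lowest and highest called members of each list, the 8 largest called differences each way, and members described whatever their call. A few genes are not reported here. No set test was made. Alternatives were a pseudocount of 0.1, no filter, a mean of at least 5 FPKM, median-of-ratios and TPM scaling, these 4 libraries alone, a replicate block, no variance trend and each library left out.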

Additional observations from a re-analysis of the deposited data

Results flagged for a closer look

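The response differed between the labelled lines for 5464 genes by limma's test of the difference, and the 8 largest called differences in each direction among genes at or above 5 FPKM are given here as H1299-labelled minus A549-labelled log2 change. On the lower side TRIB3 differed by -3.87 ± 0.097 (SE, adjusted p = 1.4e-05), DDIT3 by -3.44 ± 0.12 (SE, adjusted p = 4.1e-05) and PPP1R15A by -3.24 ± 0.059 (SE, adjusted p = 1.1e-05). STC2 differed by -3.05 ± 0.060 (SE, adjusted p = 1.1e-05), BEX2 by -2.78 ± 0.17 (SE, adjusted p = 1.5e-04) and UPP1, a uridine phosphorylase, by -2.78 ± 0.12 (SE, adjusted p = 5.5e-05). DUSP1 differed by -2.67 ± 0.10 (SE, adjusted p = 4.1e-05). Starting levels differed between the labels by unequal amounts. Control means were 164.8 FPKM (H1299-labelled) and 3.60 FPKM (A549-labelled) for STC2, and 15.7 and 11.6 FPKM for BEX2. The antisense transcript SLC9A3-AS1 differed by -3.18 ± 0.073 (SE, adjusted p = 1.4e-05), and as the strand setting is not given, its fragments cannot be told from those of the opposite strand.

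On the higher side ALDH3A1 differed by 3.62 ± 0.088 (SE, adjusted p = 1.4e-05) and RRM2 by 3.08 ± 0.092 (SE, adjusted p = 3.4e-05). SCARA3, a scavenger receptor family member, differed by 2.65 ± 0.16 (SE, adjusted p = 1.5e-04) and HSPA2, an Hsp70 of the germ line, by 2.62 ± 0.55 (SE, adjusted p = 0.012). The controls of HSPA2 were unequal, at 2.07 and 0.361 FPKM. The metallothionein gene MT1X differed by 2.56 ± 0.091 (SE, adjusted p = 4.1e-05), TNFSF14 by 2.53 ± 0.22 (SE, adjusted p = 4.9e-04), HSPA8 by 2.53 ± 0.11 (SE, adjusted p = 6.2e-05) and TK1 by 2.51 ± 0.17 (SE, adjusted p = 2.1e-04).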

How the results depend on the processing

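No gene among the 927 followed through the alternatives changed direction while called. Without each library in turn, 2983 to 3623 genes were higher, 2909 to 3584 lower, 457 to 478 higher by 2-fold and 376 to 413 lower by 2-fold, and the difference between the labels was called for 4426 to 4646 genes. These fits assume that a lone library varies like the other groups. With a replicate block 3456 genes were higher and 3377 lower, and 4709 differences were called. A mean of at least 5 FPKM left 6085 genes tested and so lowered the counts to 1790 higher, 1983 lower, 224 and 241 by 2-fold, and 2984 differences. At least 2-fold, a pseudocount of 0.1 gave 1102 higher and 718 lower, and TPM scaling 782 and 772. Both act like a smaller pseudocount, which widens the fold of low genes. TPM scaling gave 3205 higher and 4264 lower, and median-of-ratios scaling 4002 and 3459.

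Of 836 followed genes with a log2 change of at least 0.1 in size, TPM scaling moved 116 by over 1.5 times, with a median highest level of 2.08 FPKM. No alternative varied the depth. The sign of a list's median changed under TPM scaling for NF-kB alone (-0.06). Under other settings it changed for the collagens (0.01 with no filter), the other matrix genes (-0.26 at a mean of at least 5 FPKM), the immediate early genes (0.14 with no filter, 0.18 without the second control or the first miR-29a-3p library), and the serine, epithelial, BCL2 and microRNA pathway lists, all with medians of 0.11 or less in size.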

Other observations

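A few gene families outside the lists were looked up after the values were seen, and their counts are descriptions with no test. The tested metallothioneins, which bind zinc and copper, were all called higher, 4 of 4. MT2A was at 95.02 and 89.1 FPKM in the controls and 309.6 and 294 FPKM after miR-29a-3p (log2 change 1.70, SE 0.047, adjusted p = 9.8e-06) and MT1X at 8.13 and 7.41 FPKM in the controls and 37.3 and 38.2 FPKM after miR-29a-3p (log2 change 2.14, SE 0.064, adjusted p = 9.8e-06). The treated libraries lay above both controls by more than 3-fold. The MT1 genes are close paralogs in a cluster, so the split of fragments among them is uncertain. In the A549-labelled libraries MT2A was at a log2 change of -0.04 (adjusted p = 0.63), and the difference was 1.74 ± 0.067 (SE, adjusted p = 4.5e-05).

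H1-10, a linker histone gene, fell from 158 and 156 to 25.1 and 36.03 FPKM (log2 change -2.34, SE 0.15, adjusted p = 6.2e-05), with unequal treated libraries. Of 8 clade B serpins, intracellular protease inhibitors, 4 were higher and 2 lower. SERPINB3 rose from 0.473 and 0.378 to 5.69 and 5.38 FPKM (log2 change 2.20, SE 0.068, adjusted p = 9.8e-06), and its neighbour and close paralog SERPINB4 from 0.3003 and 0.329 to 3.69 and 3.8 FPKM (log2 change 1.85, SE 0.069, adjusted p = 1.3e-05).

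CD82, a tetraspanin known as a metastasis suppressor, rose from 0.7397 and 0.922 to 7.67 and 6.95 FPKM (log2 change 2.18, SE 0.070, adjusted p = 9.8e-06). SULF2, an extracellular sulfatase of heparan sulfate, rose from 3.16 and 2.89 to 19.02 and 21.2 FPKM (log2 change 2.39, SE 0.074, adjusted p = 9.8e-06) and GXYLT1, a xylosyltransferase that modifies Notch, from 2.97 and 2.76 to 14.9 and 15.3 FPKM (log2 change 2.06, SE 0.064, adjusted p = 9.8e-06). AC092143.1, annotated as protein-coding, was listed at 0 in both controls and was at 6.38 and 4.04 FPKM after miR-29a-3p, so no fold is given. Of 520 tested lincRNA genes 79 were higher and 110 lower, and of 841 processed pseudogenes 129 were higher and 147 lower, beside 25.1% and 24.8% of all genes tested.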
